A study of Homo sapiens with 6 samples.

Results

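The *HOX* genes encode homeodomain transcription factors and were the genes whose symbol is HOXA, HOXB, HOXC or HOXD followed by a number from 1 to 13. This rule used names only and gave 39 of the 62710 genes in the table, 11 in the *HOXA* cluster, 10 in *HOXB*, 9 in *HOXC* and 9 in *HOXD*. Their RNA was measured by RNA sequencing in H526, a small cell lung cancer cell line, with 3 libraries of parental cells (numbered 1 to 3) and 3 of onvansertib-resistant cells (numbered 7 to 9). Onvansertib inhibits the mitotic kinase PLK1, and the comparison asks which transcripts differ once cells have become resistant to it. The parental cells are the starting line. The resistant cells are the same line after growth for over 1 year in onvansertib raised from 10 nM to 75 nM. No source names more than 1 selected population, and selection, the drug in the medium and time in culture cannot be told apart. RNA was harvested on separate occasions, so p-values measure only the spread between these libraries.

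*HOX* genes lie side by side in 4 clusters, each on its own chromosome, and genes with the same number in different clusters are paralogs. In the embryo, low-numbered genes are switched on early and toward the head, and high-numbered genes later and toward the tail and limbs. HOX proteins bind DNA together with TALE homeodomain partners of the PBX, MEIS and PKNOX families, Polycomb proteins hold the clusters silent, and trithorax proteins such as KMT2A keep them active.

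The values are the authors' normalized read counts, called normalized values here, and the depth estimated from them was about 25600000 to 28500000 reads in parental and 22300000 to 23300000 in resistant libraries. A value of about 2.84 in parental and 3.16 in resistant libraries is worth 3 reads, which was taken as the limit of detection and covers counting error only. Genes that averaged 10 or more over the 6 libraries were tested with limma on log2(value + 1), and a gene is called when its adjusted p is under 0.05 over all 16347 genes tested. By that rule 37.7% of all tested genes were called, 17.8% higher and 19.8% lower in resistant cells. The tuft cell factor *POU2F3* was high in both groups, at 25809 ± 1178 and 27273 ± 535 (SD, n = 3 each here and below), and did not pass the test. Of the other tuft-like markers, *AVIL* (20954 to 12018) and *ASCL2* (8826 to 6376) fell and *TRPM5*, *CHAT* and *GFI1B* rose. The non-neuroendocrine markers *YAP1* (48.9 to 111) and *REST* (895 to 1392) rose. The third, *VIM*, was called higher too but was low and overlapped between groups, at 5.05, 3.13 and 6.95 against 6.76, 45.8 and 27.7. It passed the filter only through the resistant libraries. The 5 tested neuroendocrine markers of 7 were all lower in resistant cells, their summed list falling from 11396–12790 to 4310–5005. Of 8 markers of other cells, *CD3E* was at 0, *PECAM1*, *PTPRC*, *CD68* and *DCN* were near 0, and *COL1A1*, *COL1A2* and *VWF* were higher in resistant cells. The sum of these 8 was 370 to 517 in parental and 818 to 1037 in resistant libraries, and its part in the results below was not tested. In bulk RNA, fewer cells of a type and less RNA per cell cannot be told apart.

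Of the 39 *HOX* genes, 28 passed the filter on low values and were tested: all 11 *HOXA*, all 9 *HOXC*, 8 of 9 *HOXD* and none of the 10 *HOXB* genes. Among them, *HOXD12* and *HOXD13* passed only through the group where they were high. Called were 15 of the 28 (53.6%, against 37.7% of all tested genes), with 6 higher (17.8% of all genes were) and 9 lower (19.8%). Among the genes higher in resistant cells were *HOXA2*, *HOXA3*, *HOXA4*, *HOXA13* and *HOXD12*. Those lower were *HOXA9*, *HOXC4*, *HOXC6*, *HOXC9*, *HOXC10*, *HOXC11*, *HOXC13*, *HOXD3* and *HOXD13*. The groups did not overlap for 19 of the 28, against 49.9% of all tested genes. The smallest p that the exact permutation test of 3 against 3 libraries can give is 0.1. Groups that do not overlap always get it, so this test adds nothing for the 19. The median log2 fold change of the 28 was -0.04, beside -0.00086 over all genes tested. By cluster the median was 0.37 for *HOXA*, -0.47 for *HOXC* and -0.03 for *HOXD*.

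**Figure D1:**
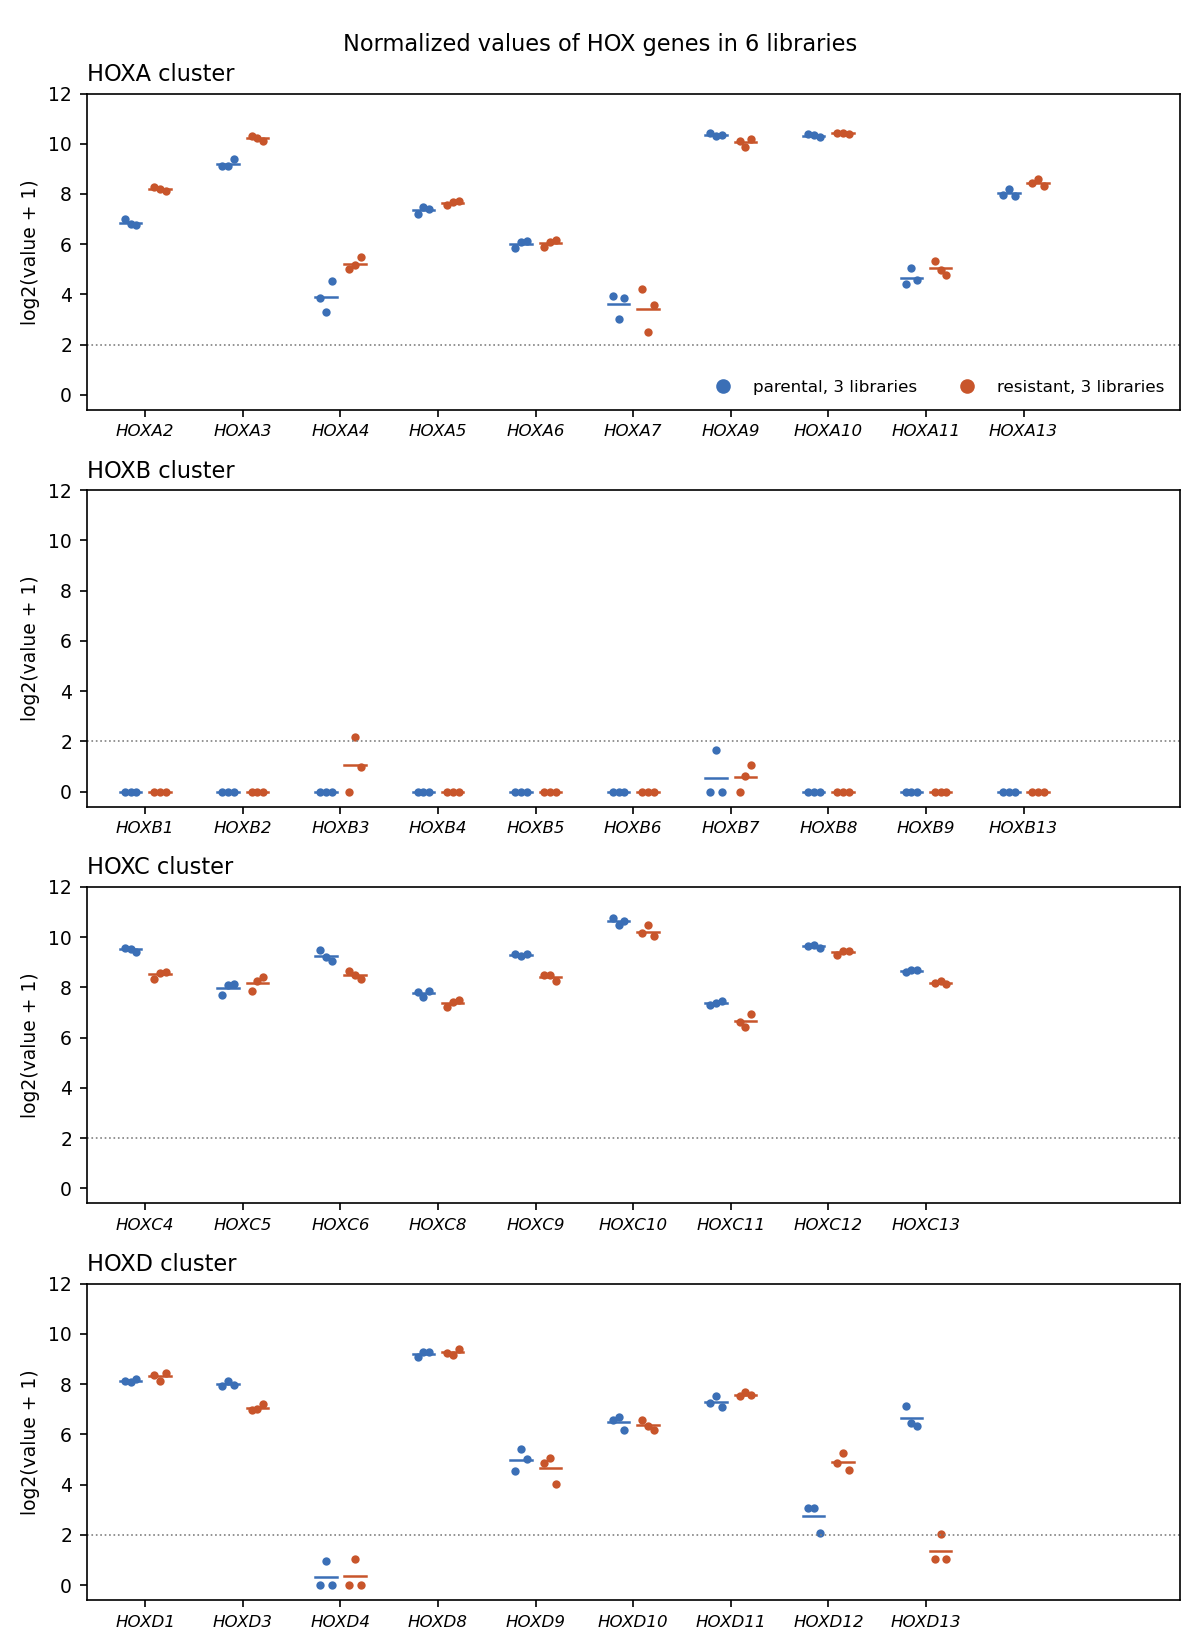
Normalized values of *HOX* genes by cluster on a log2(value + 1) axis, with 1 point per library (parental blue, resistant orange), a short line at each group's mean and a dotted line at a value of 3. *HOXD13* drops from 79.6–138 in parental libraries to 1.04–3.12 in resistant ones, and *HOXA2* and *HOXA3* rise clear of their parental points.

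**Figure D2:**
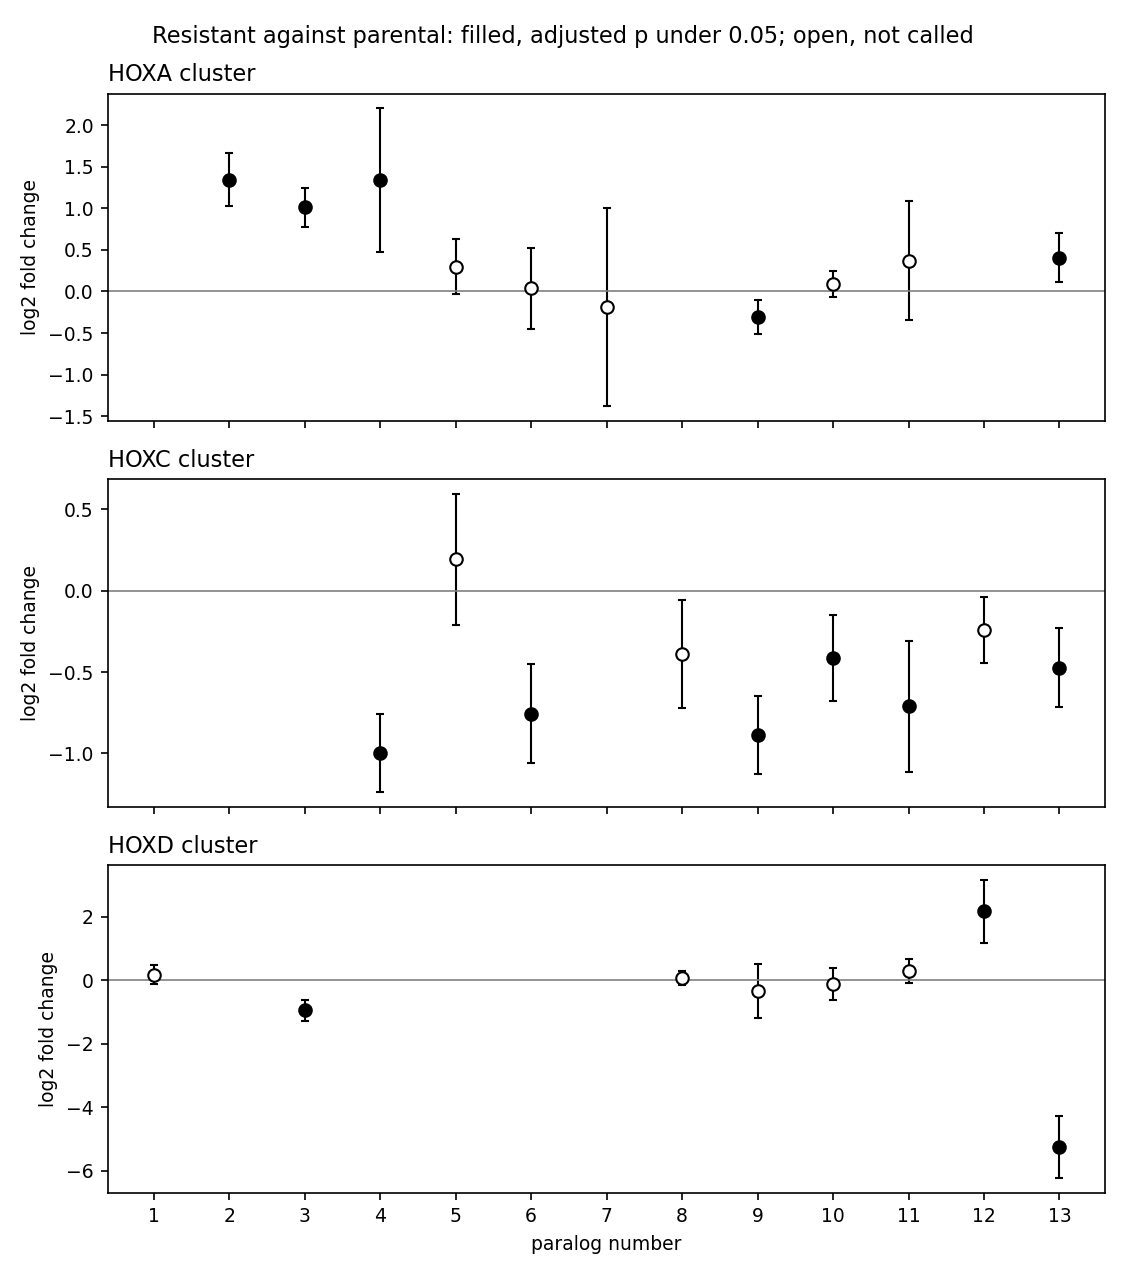
Log2 fold change, resistant over parental, of tested *HOX* genes with the 95% confidence interval, grouped by cluster. The intervals of *HOXA2*, *HOXA3*, *HOXA4* and *HOXA13* lie above 0, and those of the 6 called *HOXC* genes lie below 0.

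The *HOXD* genes at the end of their cluster held the largest changes in both directions. *HOXD13*, a gene of digit and limb patterning (ENSG00000128714, GRCh38 chromosome 2, 176092721 to 176095944), stood at 138.2, 87.3 and 79.6 in the parental libraries and at 1.04, 3.12 and 1.08 in the resistant ones. Every resistant library held no more than the limit of detection, and no parental library came near it. Divided by the value of 1 read and rounded, this was about 326 reads over the parental libraries (155, 90 and 81) and 5 over the resistant ones (1, 3 and 1), estimates that lay up to 0.113 from a whole number. The ratio was 58.5-fold lower in resistant cells, with a 95% counting interval, from these rounded reads, of 24.8 to 181 that leaves out the spread between libraries. The fitted log2 fold change was -5.26 ± 0.44 (SE, adjusted p = 1.4e-05) and depends on the pseudocount, being -3.22 with 10 and -5.92 with 0.1. Its next neighbour *HOXD12*, also a distal limb gene (ENSG00000170178, 176099795 to 176102489), stood at 7.49, 7.41 and 3.18 in parental and at 27.9, 37.7 and 23.0 in resistant libraries. Every resistant library was above every parental one, though parental library 3 was barely above the detection limit. The mean rose 4.91-fold, from 6.02 ± 2.46 to 29.6 ± 7.48 (log2 fold change 2.17 ± 0.44, adjusted p = 0.0037, and 1.3 with a pseudocount of 10). *HOXD13* and *HOXD12* each reached the filter mean of 10 only through the group where it was high. Their adjusted p-values are therefore no separate support. Neither gene shares exon bases with another annotated gene.

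*HOXD3*, whose product acts in the neck vertebrae and in cell adhesion (ENSG00000128652, 176136612 to 176173102), fell from 244.8, 279.3 and 246.6 to 123.5, 127.1 and 146.1. The resistant libraries lay together at a level well under the parental ones. The log2 fold change was -0.95 ± 0.15 (adjusted p = 0.00070). The other 5 tested *HOXD* genes did not pass the test. *HOXD1* was at 276, 273 and 293 against 331, 277 and 347 (0.17, 95% interval -0.11 to 0.46). *HOXD8*, which has the highest level per kilobase of the cluster, was at 541, 619 and 620 against 609, 578 and 670 (0.06, -0.17 to 0.29), and its groups overlapped. The limb genes *HOXD9* (-0.35, -1.20 to 0.50), *HOXD10* (-0.12, -0.61 to 0.37) and *HOXD11* (0.29, -0.08 to 0.65) also overlapped between groups. The sum over *HOXD* went from 1518 ± 69.3 to 1399 ± 60.1.

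The sequences before the transcription starts of the 5 genes below are shown because these genes carry the largest changes in the *HOXD* cluster and among the *HOXA* and *HOXC* genes. They are the 250 bases before the RefSeq start (GRCh38.p14), read 5′ to 3′ on the strand of the gene. Capitals mark matches on either strand to 3 motifs, the TATA-box sequence TATAAA, the NF-Y sequence CCAAT and TGATTNAT, a form of the joint site of PBX and HOX proteins. *HOXD13* lies at chr2:176092471-176092720 on the plus strand, *HOXD12* at chr2:176099545-176099794 (plus), *HOXD3* at chr2:176157057-176157306 (plus), *HOXA2* at chr7:27102684-27102933 (minus) and *HOXC4* at chr12:54016638-54016887 (plus).
HOXD13: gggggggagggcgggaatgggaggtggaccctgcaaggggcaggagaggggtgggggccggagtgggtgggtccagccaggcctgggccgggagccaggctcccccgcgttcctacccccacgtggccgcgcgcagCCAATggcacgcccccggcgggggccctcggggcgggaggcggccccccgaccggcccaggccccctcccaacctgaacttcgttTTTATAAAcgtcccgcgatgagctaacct
HOXD12: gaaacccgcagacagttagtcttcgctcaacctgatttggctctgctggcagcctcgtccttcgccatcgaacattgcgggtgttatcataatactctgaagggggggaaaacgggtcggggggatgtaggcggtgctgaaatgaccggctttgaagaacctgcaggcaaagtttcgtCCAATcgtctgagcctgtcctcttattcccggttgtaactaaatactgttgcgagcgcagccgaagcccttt
HOXD3: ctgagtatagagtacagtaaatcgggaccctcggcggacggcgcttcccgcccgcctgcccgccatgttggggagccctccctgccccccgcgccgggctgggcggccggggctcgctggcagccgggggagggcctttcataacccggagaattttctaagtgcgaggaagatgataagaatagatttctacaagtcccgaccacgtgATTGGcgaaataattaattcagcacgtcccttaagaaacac
HOXA2: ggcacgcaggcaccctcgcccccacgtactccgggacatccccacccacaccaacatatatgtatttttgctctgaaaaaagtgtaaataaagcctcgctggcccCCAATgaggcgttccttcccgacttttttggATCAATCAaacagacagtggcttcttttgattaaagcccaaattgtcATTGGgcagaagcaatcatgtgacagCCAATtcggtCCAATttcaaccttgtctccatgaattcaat
HOXC4: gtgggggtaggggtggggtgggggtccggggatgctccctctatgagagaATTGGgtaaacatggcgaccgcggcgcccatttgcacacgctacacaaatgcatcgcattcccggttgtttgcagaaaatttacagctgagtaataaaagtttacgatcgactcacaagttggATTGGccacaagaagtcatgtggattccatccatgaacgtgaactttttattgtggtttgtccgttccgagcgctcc

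The *HOXD13* window held 21 CG dinucleotides with 74% G and C, while *HOXD12* held 16 with 53.2%, *HOXD3* 21 with 59.2%, *HOXC4* 14 with 50.8% and *HOXA2* 8 with 47.2%. *HOXD13* has the run TTTATAAA close to its start, which reads as TATAAA on both strands, and *HOXA2* has 4 CCAAT matches and the only TGATTNAT match of the 5. Over all 35116 promoter windows in the table the shares were 10.7% with TATAAA, 32.0% with CCAAT and 2.48% with TGATTNAT. Of 27 windows for the 20 *HOX* members that had one, 5 held TATAAA, 18 CCAAT and 2 TGATTNAT, and the median number of CG dinucleotides was 19 against 11 over all windows. *HOXC4* and *HOXC5* have the same RefSeq start window. A match describes letters and shows no binding.

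*HOXA2*, *HOXA3* and *HOXA4*, which lie next to each other, rose in resistant cells. *HOXA2*, which sets the identity of the second branchial arch (ENSG00000105996, chromosome 7, 27100354 to 27102686), was at 125.6, 110.9 and 109.1 in parental and 313.1, 291.2 and 277.6 in resistant libraries. The resistant libraries were all far above the parental ones. The mean rose 2.55-fold (log2 fold change 1.35 ± 0.14, adjusted p = 7.2e-05). *HOXA3*, needed for thymus and parathyroid development (ENSG00000105997, 27106184 to 27152583), rose from 551.5, 546.7 and 675.0 to 1270, 1190 and 1112. Parental library 3 was the highest of its group and still far from the resistant values. The rise was 2.01-fold (1.01 ± 0.11, adjusted p = 5.8e-05). *HOXA4* (ENSG00000197576, 27128507 to 27130780) was at 13.3, 8.71 and 22.2 against 31.5, 34.8 and 43.7, a log2 fold change of 1.34 ± 0.39 (adjusted p = 0.0214). Its groups did not overlap, but its reads were few. The call for *HOXA4* was lost without parental library 1 or 2 or resistant library 8 or 9 (adjusted p 0.0506 to 0.0769).

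The middle *HOXA* genes differed less. *HOXA5*, which acts in lung development, was at 144.3, 178.1 and 165.8 against 189.1, 202.0 and 208.9. Its groups did not overlap, and it did not pass the test (0.30, 95% interval -0.03 to 0.63, adjusted p = 0.141). *HOXA6* was at 56.4 to 68.5 in parental and 57.6 to 71.6 in resistant libraries (0.04, -0.45 to 0.52) and *HOXA7* at 7.16 to 14.3 and 4.74 to 17.3 (-0.19, -1.38 to 1.01). Both overlapped between groups, and 62.5% of the exon bases of *HOXA7* lie under the antisense gene *HOXA-AS3*.

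At the high-numbered end, *HOXA9*, which marks blood progenitors and many acute leukemias (ENSG00000078399, 27162438 to 27175180), fell from 1375, 1283 and 1295 to 1107, 947 and 1150. All resistant values were below all parental values. The log2 fold change was -0.31 ± 0.09 (adjusted p = 0.0224), and the call was lost without parental library 1 or 3 or resistant library 8 (adjusted p 0.0552 to 0.0816) and in limma without the trend (adjusted p = 0.0633). *HOXA10* (ENSG00000253293, 27170605 to 27180261), active in the uterus and blood, was at 1324, 1295 and 1227 against 1376, 1360 and 1349. The groups stood apart by little (0.09, -0.07 to 0.25, adjusted p = 0.368). *HOXA11*, of the limb and uterus, was at 20.1 to 32.0 against 26.7 to 39.5 and overlapped (0.37, -0.35 to 1.09). *HOXA13*, of the digits and genital tract (ENSG00000106031, 27193503 to 27200091), rose from 246.5, 295.3 and 243.5 to 341.3, 381.0 and 319.8. Each resistant value exceeded each parental one (0.41 ± 0.13, adjusted p = 0.0344), and the call was lost without parental library 1 or 3 or resistant library 7 or 8 (adjusted p 0.0723 to 0.125). The sum of *HOXA* genes 9 to 13 was 2887 ± 90.7 and 2809 ± 79.0, with overlap, and that of the whole cluster rose by 20.4%, from 4029 ± 38.6 to 4852 ± 123.

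Of the 9 *HOXC* genes, 6 were called lower in resistant cells and none higher. *HOXC4* (ENSG00000198353, chromosome 12, 54016931 to 54056030), expressed in lymphoid and skin cells, fell from 763.2, 742.3 and 688.5 to 325.9, 382.2 and 391.0. No resistant library came near the parental range (-0.999 ± 0.11, adjusted p = 7.7e-05). *HOXC9*, which patterns thoracic motor neurons (ENSG00000180806, 53994895 to 54003337), fell from 638.8, 612.5 and 640.3 to 361.8, 356.7 and 305.2 (-0.89 ± 0.11, adjusted p = 0.00015). Here too the groups were well separated. *HOXC6*, expressed in the forelimb-level spinal cord, went from 716, 589 and 536 to 407, 359 and 321, without overlap (-0.76 ± 0.14, adjusted p = 0.0018). *HOXC11* fell from 155.9, 165.6 and 174.2 to 98.5, 85.3 and 120.5 (-0.71 ± 0.18, adjusted p = 0.0115). *HOXC13*, which controls hair keratins, fell from 394.8, 414.0 and 409.5 to 289.2, 306.1 and 282.4 (-0.47 ± 0.11, adjusted p = 0.0067). Neither *HOXC11* nor *HOXC13* overlapped between groups. *HOXC10*, a factor of hindlimb motor neurons, was at 1759, 1446 and 1591 against 1139, 1429 and 1053. Resistant library 8 lay just under parental library 2, and the groups did not overlap (-0.41 ± 0.12, adjusted p = 0.02). The call for *HOXC10* was lost without parental library 1 or 3 or resistant library 7 or 9 (adjusted p 0.0562 to 0.0742) and without the trend (adjusted p = 0.0782).

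The remaining *HOXC* genes did not pass the test. *HOXC8*, of the brachial spinal cord, was at 224.6, 196.8 and 232.8 against 149.3, 171.8 and 177.8, without overlap (-0.39, 95% interval -0.72 to -0.06, adjusted p = 0.0629). *HOXC12*, also without overlap, was at 806.8, 830.9 and 751.8 against 624.1, 699.6 and 695.5 (-0.24, -0.45 to -0.04, adjusted p = 0.0593). *HOXC5* overlapped, at 204.0, 273.8 and 283.5 against 232.0, 300.8 and 339.1 (0.19, -0.21 to 0.59). On the same strand, 67.3% of its exon bases are shared with the RNA gene ENSG00000273046. The *HOXC* sum went from 5414 ± 217 to 3801 ± 252, a fall of 29.8%, and its groups did not overlap.

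Many genes on either side of the *HOXC* cluster were lower too. Of the 20 nearest tested genes, 10 on each side, 12 were called lower and none higher, and their median log2 fold change was -0.45, beside -0.47 for the 9 members. The nearest was *CALCOCO1* on one side (-0.34, adjusted p = 0.023) and *FLJ12825* on the other (0.11). Around *HOXA*, 2 neighbours were called higher and 5 lower (median 0.00), with *SKAP2* at 2344 against 3462 and the lowly expressed *EIF4HP1* (-0.73, adjusted p = 0.152) next to the cluster. Around *HOXD* 1 was higher and 4 lower (median 0.09), with *LNPK* (0.24) and *MTX2* (-0.04) nearest. Around *HOXB* 9 were higher and 3 lower (median 0.18). When each value was centred on the median of its neighbouring genes, an alternative chosen after the data were seen, *HOXC4* (-0.52, adjusted p = 0.0058) and *HOXC9* (-0.41, adjusted p = 0.0096) stayed lower. *HOXC6*, *HOXC10*, *HOXC11*, *HOXC13* and *HOXA9* (-0.23, adjusted p = 0.094) were then no longer called, and *HOXC5* was called higher (0.67, adjusted p = 0.0209). *HOXA2* (1.40), *HOXA3* (1.07), *HOXD3* (-0.94), *HOXD12* (2.18) and *HOXD13* (-5.25) kept their calls. Whether a change over the whole chromosome region takes part in the *HOXC* values was not tested.

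**Figure D3:**
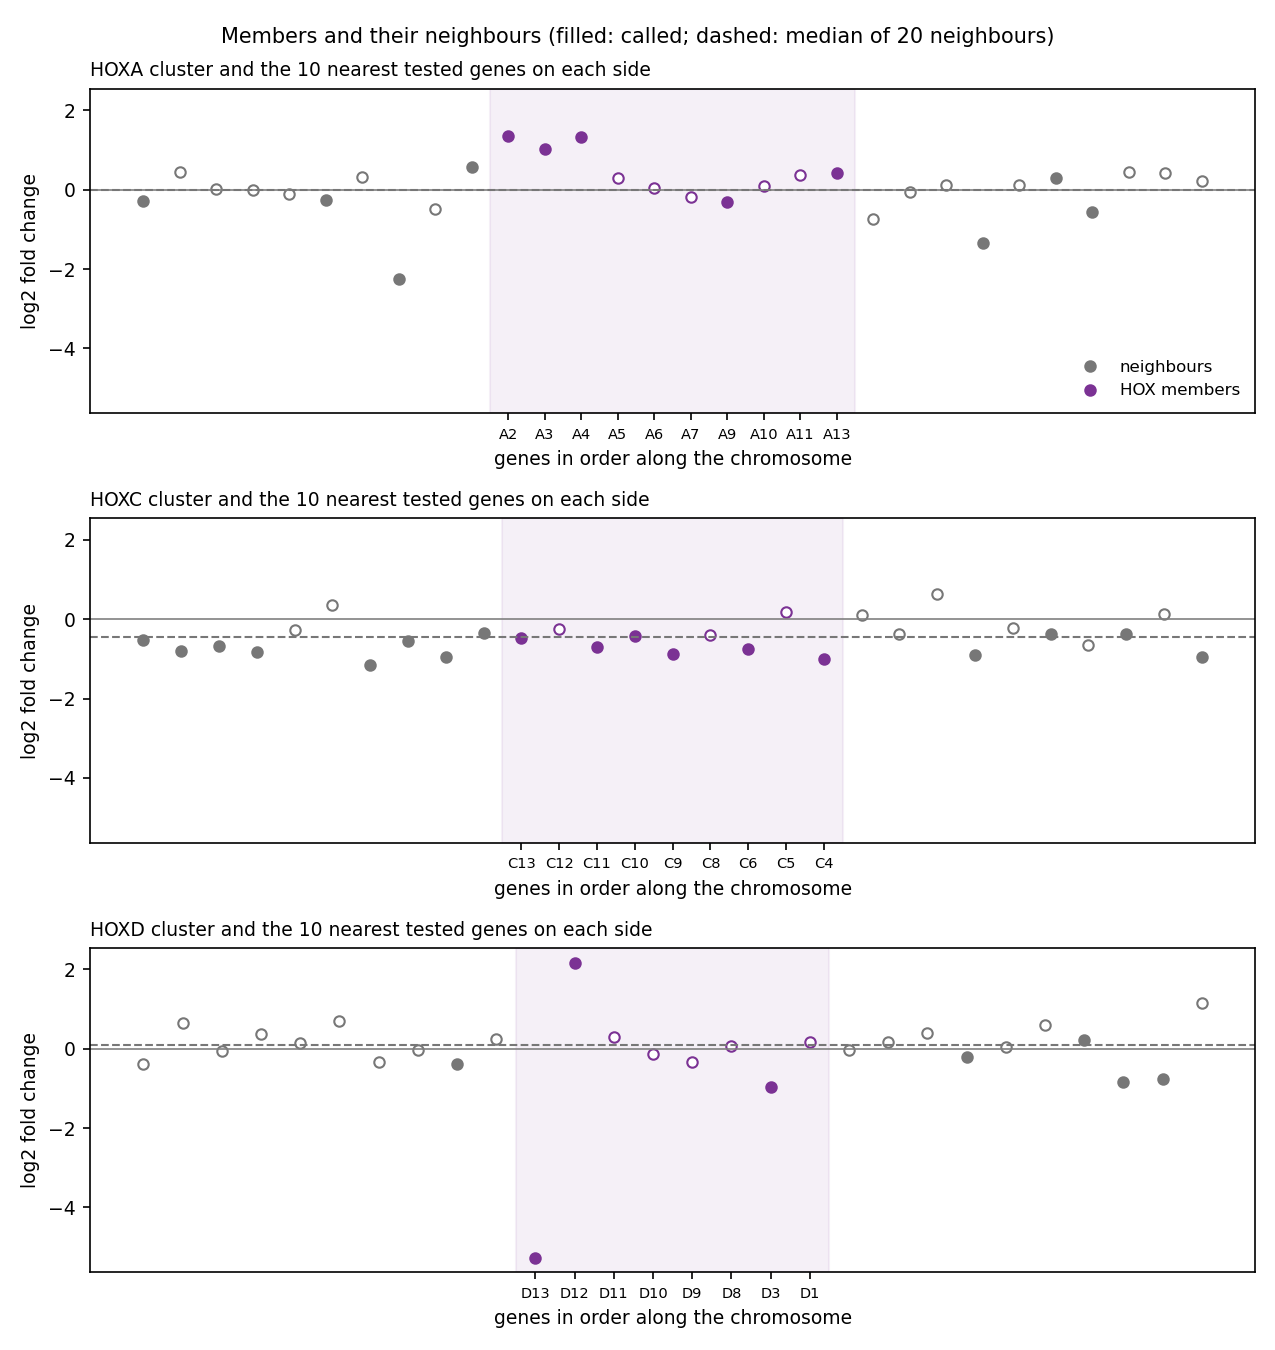
Log2 fold change of tested *HOX* members (shaded) and of the 10 nearest tested genes on each side, in order along the chromosome, with called genes filled and the median of the 20 neighbours dashed. The *HOXC* neighbours centre on -0.45, near the -0.47 of the *HOXC* members, while the neighbours of *HOXA* and *HOXD* centre on 0.00 and 0.09.

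No *HOXB* gene reached the filter. *HOXB1*, *HOXB2*, *HOXB4*, *HOXB5*, *HOXB6*, *HOXB8*, *HOXB9* and *HOXB13* were listed at 0 in all 6 libraries. A true level worth up to 3 reads, the limit of detection, cannot be told from 0. *HOXB7* reached at most 2.11 in parental and 1.11 in resistant libraries. *HOXB3* was at 0 in the parental libraries and at 0, 3.47 and 0.99 in the resistant ones, and resistant library 8 was the only library of the 6 in which a *HOXB* gene passed the detection limit. The first tested gene on each side of the cluster was well expressed, *SNX11* at 583 and 391 and *CALCOCO2* at 1136 and 1278. In *HOXD*, *HOXD4* was likewise undetected, at 0.96 in parental library 2, 1.04 in resistant library 8 and 0 elsewhere. In all, 10 of the 39 genes were not detected in any library.

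Per kilobase of the longest transcript, the only scale on which genes are compared here, *HOXC10* had the highest level in both groups, 809 in parental and 611 in resistant cells. *HOXA9* and *HOXA10* followed, at 638 and 505 in parental and 517 and 536 in resistant cells. *HOXC4* (428 to 214) and *HOXC9* (419 to 227) came next in parental cells, at ranks 4 and 5, and stood at ranks 7 and 6 in resistant cells. *HOXA3* went from rank 9 to rank 4, 181 to 365, and *HOXA2* from 57.8 to 148. Of the summed level per kilobase of all members, *HOXA* made up 34.1% ± 0.358 in parental and 44.6% ± 1.82 in resistant cells, *HOXC* 52.0% ± 0.985 and 40.7% ± 2.43, and *HOXD* 13.8% and 14.7%. The share of *HOXC* was 51.1 to 53.0% in parental and 39.1 to 43.5% in resistant libraries, and that of *HOXA* 33.8 to 34.5% and 42.6 to 46.1%, without overlap.

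**Figure D4:**
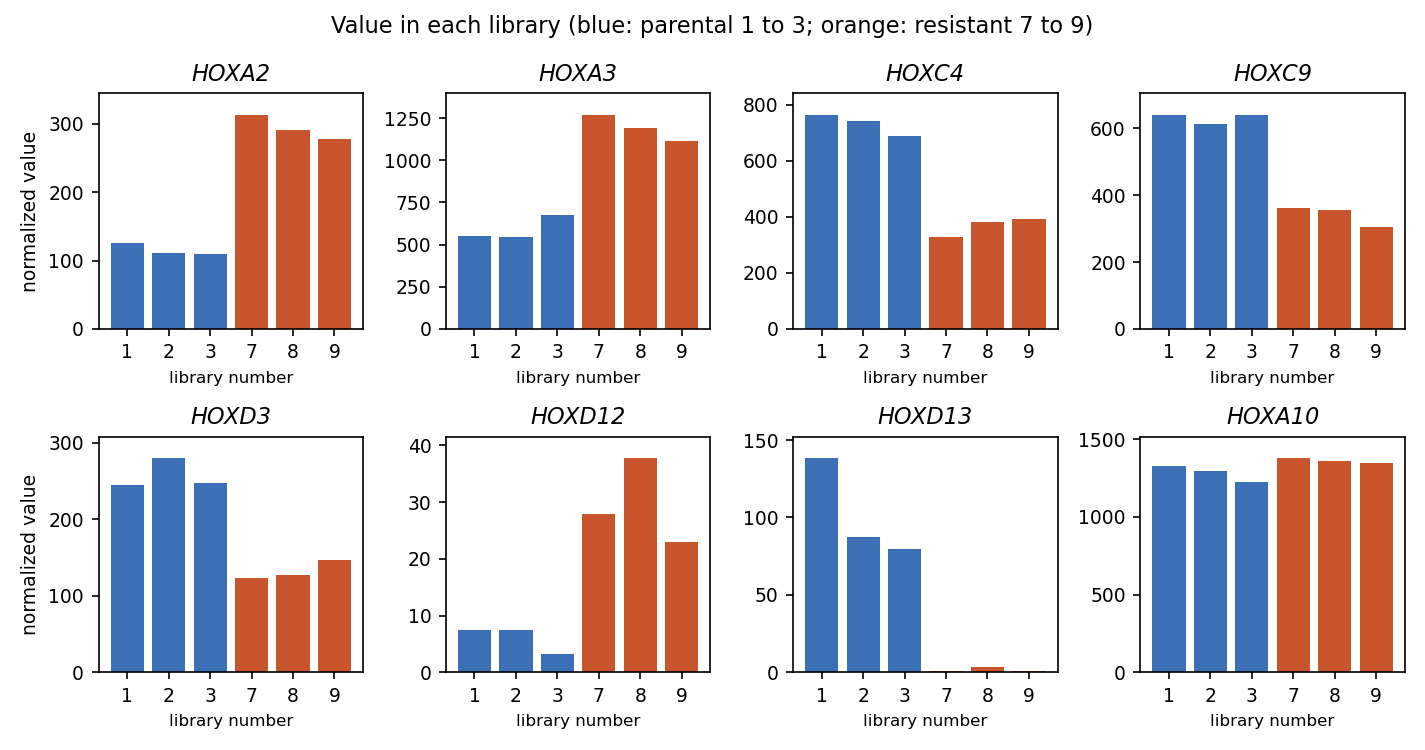
Normalized value in each library (bars, axes from 0), parental 1 to 3 in blue and resistant 7 to 9 in orange, for the 7 *HOX* genes that kept their call under every alternative and for *HOXA10*, which was not called. *HOXA2*, *HOXA3* and *HOXD12* are higher and *HOXC4*, *HOXC9*, *HOXD3* and *HOXD13* lower in every resistant library, while *HOXA10* stays between 1227 and 1376.

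By paralog position, 3 of 5 tested genes numbered 1 to 3 were called higher and 1 lower, 1 of 9 numbered 4 to 8 was higher and 2 lower, and 2 of 14 numbered 9 to 13 were higher and 6 lower. The shares called were 80%, 33.3% and 57.1% of these small groups, beside 37.7% of all tested genes (17.8% higher and 19.8% lower). Summed over all clusters, genes 1 to 3 went from 1427 ± 73.4 to 2182 ± 84.5 and genes 9 to 13 from 6870 ± 238 to 5754 ± 180, and neither overlapped. Genes 4 to 8 went from 2664 ± 29.2 to 2119 ± 108. Most of both falls lay in *HOXC*, which has no genes 1 to 3. Its genes 9 to 13 went from 3597 to 2615 and its genes 4 to 8 from 1817 to 1185, without overlap. *HOXA* genes 4 to 8 rose from 253 to 313. Groups overlapped for *HOXA* genes 9 to 13 (2887 and 2809) and for *HOXD* genes 9 to 13 (386 and 329) and 4 to 8 (594 and 619). Whether position matters apart from cluster was not tested. Most of the rise in genes 1 to 3 lay in *HOXA3*. Called paralogs moved apart in some groups: *HOXA3* rose and *HOXD3* fell, *HOXA4* rose and *HOXC4* fell, and *HOXA13* rose and *HOXC13* and *HOXD13* fell. In group 9, *HOXA9* and *HOXC9* both fell. The calls of *HOXA4*, *HOXA9*, *HOXA13* and *HOXC13* were lost under some alternatives.

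The other listed genes of the clusters, most of them RNA genes and many antisense to members, had 11 of 24 tested. Of these 2 were called higher and 2 lower, and 12 of the 24 were at 0 in all 6 libraries. Those at 0 include every microRNA gene listed. The libraries may not hold such short RNA, so its 0 is no measure of expression. *HAGLR*, given below, is not among the 24. The share called was 36.4% of those tested, near the 37.7% of all tested genes. *HOTAIRM1*, an RNA from the low-numbered end of *HOXA*, rose from 340 ± 44.5 to 501 ± 44.9 (0.56, adjusted p = 0.0071). *HOTTIP*, beside *HOXA13* and known to act on 5′ *HOXA* genes, rose from 7.63 ± 2.67 to 20.2 ± 3.49 (1.33, adjusted p = 0.0311). It passed the filter only through the resistant libraries. *HOXA10-AS* fell from 191 ± 22.5 to 132 ± 16.6 (-0.53, adjusted p = 0.0328) and *HOXC-AS2* from 174 ± 18.2 to 123 ± 10.8 (-0.50, adjusted p = 0.0370). The other 7 tested did not pass, *HOXA-AS2* (0.47), *HOXA-AS3* (0.06), *HOXA11-AS* (0.41), *HOXC-AS1* (-0.47), *HOXC-AS3* (-0.38), *HOXC13-AS* (0.53) and *HOTAIR* (0.47). The library kit named in the labels does not mark strand, so reads of a gene and its antisense partner cannot be told apart. Of the 28 tested members, 16 have exon bases under a gene on the opposite strand and 13 under another gene on the same strand. The 8 with neither are *HOXA2*, *HOXA5*, *HOXC8*, *HOXC11*, *HOXC12*, *HOXD9*, *HOXD12* and *HOXD13*. *HOXC4* shares 17.5% of its exon bases with *HOXC6*, and *HOXD3* has 10.2% under *HOXD-AS2*, which was near 0. *HOXD3* also has 3.73% under *HAGLR* on the opposite strand, which was at 1084 ± 99.3 in parental and 1332 ± 157 in resistant cells. How many *HOXD3* reads come from *HAGLR* was not tested.

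Of the 9 TALE cofactors, all tested, 1 was higher and 2 lower (33.3% called against 37.7% of all tested genes, median log2 fold change 0.11). *PBX2* fell from 2143 ± 90.8 to 1621 ± 83.2 (-0.40, adjusted p = 0.0016) and *MEIS2* from 1000 ± 105 to 662 ± 42.3 (-0.59, adjusted p = 0.0013). *MEIS1*, the usual partner of *HOXA9*, was at 72.5, 96.3 and 39.9 against 49.2, 30.8 and 23.2, which overlapped (-0.97, adjusted p = 0.0672). *PKNOX1* (0.17), *PKNOX2* (0.12), *PBX3* (0.11), *PBX4* (-0.27) and *MEIS3* (0.42) did not pass.

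Of 33 Polycomb genes, 2 were higher and 7 lower (27.3% called, median -0.12). Over all tested genes 37.7% were called, 17.8% higher and 19.8% lower, and the shares of the lists here are to be read beside these. *EZH2*, an H3K27 methyltransferase, was at 5674 ± 311 and 3406 ± 224 (-0.74, adjusted p = 3.7e-05). *KDM2B* (-0.57) and *PHF1* (-0.58) fell too. The 2 called higher, named after their values were seen, were *EZH1* and *PCGF2* (0.29, adjusted p = 0.0379). *EZH1*, also an H3K27 methyltransferase, rose from 460 ± 62.8 to 600 ± 35.9 (0.39, adjusted p = 0.0283). Of 18 trithorax and related genes, 5 were higher and 1 lower (33.3%, median 0.02), among them *ASH1L* (0.39, adjusted p = 0.0080), *KMT2A* (0.37, adjusted p = 0.0167) and *ASH2L* (0.29). Of the 20 upstream regulators, 10 were tested, with 2 higher and 3 lower (50%, median 0.18). *GDF11*, which signals for the switch to high-numbered *HOX* genes, fell from 1596 ± 92.8 to 789 ± 40.9 (-1.02, adjusted p = 1.2e-05) and *ALDH1A1*, which makes retinoic acid, from 3613 ± 646 to 1814 ± 173 (-0.98, adjusted p = 0.00016). *GDF11* lies on chromosome 12, as *HOXC* does, at 55743122 to 55757264. Whether a change over the chromosome region takes part in the *GDF11* values was not tested. The retinoic acid receptor *RARA* rose (0.55, adjusted p = 0.0020). *CDX2*, a caudal factor that acts on *HOX* genes and was singled out after its values were seen, went from 511 ± 85.5 to 872 ± 159 (0.77, adjusted p = 0.0033). For none of these lists was a link to the *HOX* values tested.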

How the data were processed

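Total RNA of parental and onvansertib-resistant H526 cells (3 libraries each) was sequenced. Per the labels and the study's methods, the authors trimmed reads with Trimmomatic 0.38, aligned them with STAR and quantified them with RSEM 1.3.1 on GRCh38, and normalized with DESeq2 1.30.0. In the deposited table each gene has a normalized signal in every library, which is not a count. Only 29.9% to 56.7% of low values were whole multiples (tolerance 0.02 reads) of the value of 1 read, so whole reads could not be had and count tests were left out. This value gave the depth of each library.

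Of 62757 rows, the 47 second copies of pseudoautosomal genes, identical to the first, were left out. Symbols, positions and lengths came from Gencode 44, with 62639 rows matched. limma 3.58.1 under R 4.3.3 (lmFit, then eBayes with a trend) was fitted on log2(value + 1) of genes averaging 10 or more, with a term for condition. P-values were adjusted by Benjamini-Hochberg over all genes tested, with a threshold of 0.05. A log2 fold change is on this scale, positive when higher in resistant cells, and understates the change of low genes. Single genes got an exact two-sided permutation test. Only the limma fit was tried on simulated data, which held far fewer changed genes than were called here. Other computations used Python 3.11.15, numpy 2.4.6, pandas 2.3.3, scipy 1.17.1 and matplotlib 3.10.9. Promoters came from RefSeq.

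The members and lists were chosen with earlier results of these data known. Named were the *HOX* members, tested cluster RNA genes and TALE cofactors, up to 3 genes with the smallest p of another list, and the tested gene nearest on each side of a cluster. A few genes are counted but not reported here. Alternatives tried were a pseudocount of 0.1 or 10, the filter removed or raised to 50, upper quartile scaling, quantile normalization, limma without the trend and each library left out. Local median centring over 50 neighbours was added after the data were seen.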

Additional observations from a re-analysis of the deposited data

How the results depend on the processing

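Of 387 alternative values, 348 kept their direction and side of the threshold, 28 were no longer past it, 3 newly passed it and 8 changed direction. Of the 15 called members, *HOXA2*, *HOXA3*, *HOXC4*, *HOXC6*, *HOXC9*, *HOXC11*, *HOXC13*, *HOXD3*, *HOXD12* and *HOXD13* kept the call under each alternative but local median centring, where it gave a value. *HOXD12* gave none at a minimum mean of 50. With 1 library left out, 3 to 4 members were called higher (3 without resistant library 8) and 7 to 9 lower, and 4784 to 5618 genes in all. With local median centring 4 members were called lower and 7 higher, and *HOXC8* (0.091), *HOXC10* (0.067) and *HOXC12* (0.21) changed direction. The rise of the *HOXA* sum was 25.1% with upper quartile scaling. *HOXA6* was at -0.15 with quantile normalization and between -0.048 and 0.13 with 1 library left out, *HOXA7* between -0.57 and 0.26, and *HOXD8* between -0.0038 and 0.11, and none of these was called. *HOXC8* was called lower with quantile normalization (adjusted p = 0.0431) and without the trend (0.0429). The cause of these shifts was not tested. No paired analysis was possible because the parental libraries are numbered 1 to 3 and the resistant ones 7 to 9, so the groups share no number. RNA was taken from both kinds of cells at separate times, but the sources do not say which libraries share a time.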

Other observations

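Of 30 other homeobox genes of the ANTP class, to which the *HOX* genes belong, 19 were tested, with 7 higher and 2 lower in resistant cells. Called were 47.4% of them, against 37.7% of all tested genes, and the median log2 fold change was 0.32. *EN2*, a midbrain and hindbrain factor, fell from 1407 ± 87.5 to 695 ± 26.0 (-1.02, limma adjusted p = 1.3e-05). *DLX3* was at 2.0, 0 and 0 in parental and 54.1, 32.3 and 30.2 in resistant libraries, so that no parental library passed the limit of 3 reads and every resistant library did. It was tested only because of its resistant values. *DLX4* rose from 17.0 ± 9.44 to 92.5 ± 4.68 (2.51, adjusted p = 0.00058). *DLX1* and *DLX2*, named after their values were seen, were also called higher (0.70 and 0.98), and *DLX5* (0.22) and *DLX6* (-0.31) were not called. Of 11 insulator and loop proteins, 1 was higher and 2 lower (27.3% called, under the share of all tested genes), with *MAZ* at -0.44, *STAG2* at 0.28 and *STAG1* at -0.23.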
